A study of Homo sapiens with 12 samples.

Results

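PDK4, ANGPTL4 and CPT1A are genes of the switch between sugar and fat as cellular fuel, and they were followed here with the other pyruvate dehydrogenase kinases (PDK1, PDK2, PDK3) and the pyruvate dehydrogenase phosphatases (PDP1, PDP2). These 8 genes were taken by name, as the rows of the count table whose Entrez identifier carries one of those symbols, out of 28395 identifiers in all. The names were chosen with earlier results of these data known. The libraries were 12, in 4 groups of 3, all from BEAS-2B, an epithelial line of human bronchus that was immortalised with a viral hybrid. The groups were both agents together, TGF-β1 alone, dexamethasone alone and untreated control, set up to ask how TGF-β1 alters the answer of epithelial cells to glucocorticoids. TGF-β1 was used at 40 pM for 24 h and dexamethasone, a synthetic glucocorticoid, at 30 nM for 4 h, given after TGF-β1 where both were used. All cells had first spent 24 h without serum or steroid; the vehicle, and whether cultures with TGF-β1 alone were held for the further 4 h, were not given in the sources used here. Per the design text these are biological triplicates of 1 line, so p-values measure the spread between its cultures. The growth protocol in the labels names A549 cells, whereas the other fields name BEAS-2B.

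The pyruvate dehydrogenase complex turns pyruvate into acetyl-CoA inside mitochondria and so commits carbon from glucose to oxidation. The PDK enzymes phosphorylate the complex and switch it off, and the PDP enzymes remove the phosphate and switch it on. PDK4 is the kinase induced by fasting and by glucocorticoids, and it spares glucose while fat is burned. CPT1A, carnitine palmitoyltransferase 1A, controls the entry of long-chain fatty acids into mitochondria. ANGPTL4, angiopoietin-like 4, is a secreted inhibitor of lipoprotein lipase and is known as a target of glucocorticoids, PPAR receptors, hypoxia and TGF-β.

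The sequences just upstream of PDK4, ANGPTL4 and CPT1A are shown because these 3 genes answered the agents in 3 different ways, as given below. Each line holds the 250 bases before the annotated gene start, 5′ to 3′ on the strand of the gene, from RefSeq on build GRCh38.p14. PDK4 lies on the minus strand of chromosome 7 (chr7:95596517-95596766), ANGPTL4 on the plus strand of chromosome 19 (chr19:8363905-8364154) and CPT1A on the minus strand of chromosome 11 (chr11:68844278-68844527). Capitals mark the letters of the motifs that were searched.
PDK4: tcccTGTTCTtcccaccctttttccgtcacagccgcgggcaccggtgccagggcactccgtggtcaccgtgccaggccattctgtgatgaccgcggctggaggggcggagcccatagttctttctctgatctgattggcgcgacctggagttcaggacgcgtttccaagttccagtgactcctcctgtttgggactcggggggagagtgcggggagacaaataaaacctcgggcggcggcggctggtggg
ANGPTL4: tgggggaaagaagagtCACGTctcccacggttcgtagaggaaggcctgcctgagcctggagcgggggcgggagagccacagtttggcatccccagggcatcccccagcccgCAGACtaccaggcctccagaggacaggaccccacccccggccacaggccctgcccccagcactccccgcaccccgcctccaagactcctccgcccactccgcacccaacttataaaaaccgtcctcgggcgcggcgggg
CPT1A: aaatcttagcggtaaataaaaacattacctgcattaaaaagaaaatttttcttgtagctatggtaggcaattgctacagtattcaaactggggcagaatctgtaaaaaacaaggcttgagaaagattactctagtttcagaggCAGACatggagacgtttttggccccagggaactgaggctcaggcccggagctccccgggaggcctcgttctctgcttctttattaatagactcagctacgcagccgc

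The motifs were searched on both strands of 300-base windows, 250 bases before to 50 after a start, in 35116 RefSeq windows. The PDK4 window held the single glucocorticoid receptor hexamer AGAACA on the opposite strand (TGTTCT as printed), from base -246, and 14.8% of all windows hold one. The ANGPTL4 window held the hypoxia motif ACGTG on the opposite strand (CACGT as printed) and the SMAD motif CAGAC, which 21.4% and 45.3% of windows hold. The CPT1A window held CAGAC before its start, and CAGAC and the second hypoxia motif GCGTG (in 36.5% of windows) after it; the PDK4 window held CAGAC after its start. None of these 3 windows held the full glucocorticoid receptor motif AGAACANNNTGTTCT, even with 1 mismatch (0.165% of windows hold that), the PPAR and RXR direct repeat AGGTCANAGGTCA with up to 2 mismatches (2.97%), its single hexamer AGGTCA (13.8%) or the FOXO motif GTAAACA (3.42%). These are matches of letters, and binding was not measured.

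Total counts per library ran from 5861591 to 19727235, with replicate 3 of every group at 17968961 or more and replicates 1 and 2 at 7008203 or less. Libraries of the same replicate number deviated together from their group means (correlation 0.25 to 0.541 across genes in 18 pairs), so the number was also fitted as a block, and its value stands beside the result of a gene described below where the call changed. The 7 listed epithelial marker genes were all present, with a summed level of 1920 to 4780 CPM over the 12 libraries. With TGF-β1 and in control, the mean CPM was 960 and 568 for KRT7 and 602 and 502 for KRT5. It was lower with TGF-β1 than in control for KRT18 (149 and 359), KRT19 (60.3 and 186), CDH1 (63.6 and 99.9), KRT8 (504 and 583) and EPCAM (7.84 and 9.39). The adipocyte markers ADIPOQ and CIDEA, the hepatocyte markers ALB and TTR and the muscle marker CKM had at most 10 reads each in all 12 libraries together. Other genes of these lists were present: SERPINA1, of the hepatocyte list, had 1951 reads, ACTA1 and TNNT2, of the muscle list, 7439 and 1447, and CD68, of the leukocyte list, 1938. The muscle list summed to 57.2 to 82.5 CPM and the hepatocyte list to 12.9 to 20.2 CPM over the 12 libraries. The 5 adipocyte markers summed to 0.81 to 1.39 CPM with both agents, 0.773 to 0.953 with TGF-β1, 2.98 to 3.84 with dexamethasone and 3.26 to 4.49 in control; most of this was CFD in each group but TGF-β1. The 5 fibroblast markers summed to 716 to 1020 CPM with both agents, 527 to 728 with TGF-β1, 241 to 399 with dexamethasone and 222 to 348 in control, mostly from THY1 and COL1A2. COL1A2 had a mean of 216 CPM with both agents, 214 with TGF-β1, 7.34 with dexamethasone and 6.69 in control. THY1 had 636, 415, 325 and 291 CPM in the same groups. DCN and LUM, also of that list, had 9 and 7 reads in the 12 libraries. The part of these shifts in the TGF-β1 results below was not tested. In RNA from whole cultures, fewer cells that make a transcript and less of it per cell cannot be told apart.

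Levels are CPM, reads scaled to a common library total, on totals corrected for composition by TMM. Effects are log2 fold changes with a standard error (SE). Calls are at adjusted p under 0.05, where p comes from the quasi-likelihood test of edgeR and is adjusted over 13469 genes by the Benjamini-Hochberg method. All 8 genes passed the filter on low counts. PDK4 passed it only through libraries given dexamethasone, since its highest level without that agent was 1.4 CPM and the filter corresponds to 1.53 CPM.

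PDK4 was the member with the largest dexamethasone effect, and its level under the steroid was lower where TGF-β1 was also given. With both agents PDK4 had 3.08, 9.75 and 5.9 CPM, and with TGF-β1 alone 0.175, 0 and 0.168 CPM. With dexamethasone alone it had 15.8, 31.2 and 25.2 CPM, and in control 0.303, 1.4 and 0.773 CPM. The libraries of the 4 groups did not overlap, in the order dexamethasone, both, control and TGF-β1. Dexamethasone raised PDK4 29.6-fold over control (log2 4.89, SE 0.45, adjusted p = 7.56e-06). This was the 9th largest rise of 13469 genes. That rank is a description only, since PDK4 was among the tested genes only through its level with dexamethasone. The same limit holds for each adjusted p of PDK4 that sets a group given dexamethasone against one without it. In cells given TGF-β1 it raised PDK4 42.7-fold, both agents against TGF-β1 alone (log2 5.42, SE 0.70, adjusted p = 0.000201), but the level reached was lower: it was 3.92-fold lower with both agents than with dexamethasone alone (log2 -1.97, SE 0.34, adjusted p = 0.00075). Both agents raised PDK4 7.56-fold over control (log2 2.92, SE 0.50, adjusted p = 0.000514).

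The reads behind these ratios were few wherever dexamethasone was absent. Over the 3 libraries PDK4 had 172 reads with both agents, 4 with TGF-β1, 844 with dexamethasone and 27 in control. The ratio of summed reads was 45.5 for both agents against TGF-β1 (95% counting interval 17.5 to 169) and 30.7 for dexamethasone against control (20.9 to 46.8). These intervals overlap, and the interaction, which subtracts the steroid effect without TGF-β1 from the one with it, was not past the test (0.53, SE 1.02, edgeR adjusted p = 1.0). On a log2(CPM + 0.5) scale that difference was -1.94, 0.29 and -1.08 within replicates 1, 2 and 3, so its direction depended on how the few reads of the TGF-β1 libraries were treated. TGF-β1 against control gave -2.50 (SE 0.99) and was not past edgeR's test (adjusted p = 0.0704). It was past the threshold with the replicate block (adjusted p = 0.00199), with DESeq2 (adjusted p = 0.0125) and with scaling by library size alone (adjusted p = 0.0464). In edgeR it was also past it without replicate 1 or replicate 2 of the libraries with both agents (adjusted p = 0.0409 and 0.0427). Those libraries are not in this comparison, but leaving one out changes the shared spread, the filter, the scaling and the adjustment.

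ANGPTL4 was highest where both agents were given, and TGF-β1 raised it with and without the steroid. ANGPTL4 had 54.1, 27 and 39.6 CPM with both agents and 7.53, 7.89 and 10.6 CPM with TGF-β1. It had 4.14, 5.06 and 3.11 CPM with dexamethasone and 1.97, 2.48 and 2.8 CPM in control. The 4 groups did not overlap, in that order from high to low. Both agents raised ANGPTL4 15.9-fold over control (log2 3.99, SE 0.28, adjusted p = 1.39e-07). TGF-β1 raised it 3.54-fold over control (log2 1.82, SE 0.30, adjusted p = 0.000337) and 10.3-fold on top of dexamethasone, both agents against dexamethasone alone (log2 3.37, SE 0.26, adjusted p = 5.59e-07). In cells given TGF-β1, dexamethasone raised it 4.5-fold, both agents against TGF-β1 alone (log2 2.17, SE 0.24, adjusted p = 3.11e-05). Dexamethasone against control gave 0.62 (SE 0.32), which was not past the test (adjusted p = 0.324, and 0.33 with the block).

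On the CPM scale, ANGPTL4 stood 37.8 CPM above control with both agents, while the differences of TGF-β1 and dexamethasone from control, 6.25 and 1.68 CPM, sum to 7.94 CPM. For PDK4 the corresponding values were 5.42 CPM with both agents and a sum of 22.6 CPM, from -0.71 CPM with TGF-β1 and 23.3 CPM with dexamethasone. On this scale, on which no test was run, the 2 genes lay on opposite sides of the sum of the separate differences. The log2 interaction of PDK4 was 0.53 (SE 1.02), which was not past edgeR's test, and its direction was not settled. On the log2 scale, the interaction of ANGPTL4 was 1.55 (SE 0.41), the dexamethasone effect being larger with TGF-β1 in all 3 replicate numbers (1.86, 0.81 and 1.72 on log2(CPM + 0.5)). It was not past edgeR's test over all genes (unadjusted p = 0.00205, adjusted p = 0.132, and 0.0752 with the block). DESeq2 called it (adjusted p = 0.0242), and so did edgeR without replicate 2 of the libraries with both agents (1.75, adjusted p = 0.0273), the library with the lowest ANGPTL4 of its group, and without replicate 2 of all 4 groups (1.86, adjusted p = 0.0429). Over the 12 libraries left out in turn the value lay between 1.28 and 1.76 and the adjusted p between 0.0273 and 0.477.

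**Figure D1:**
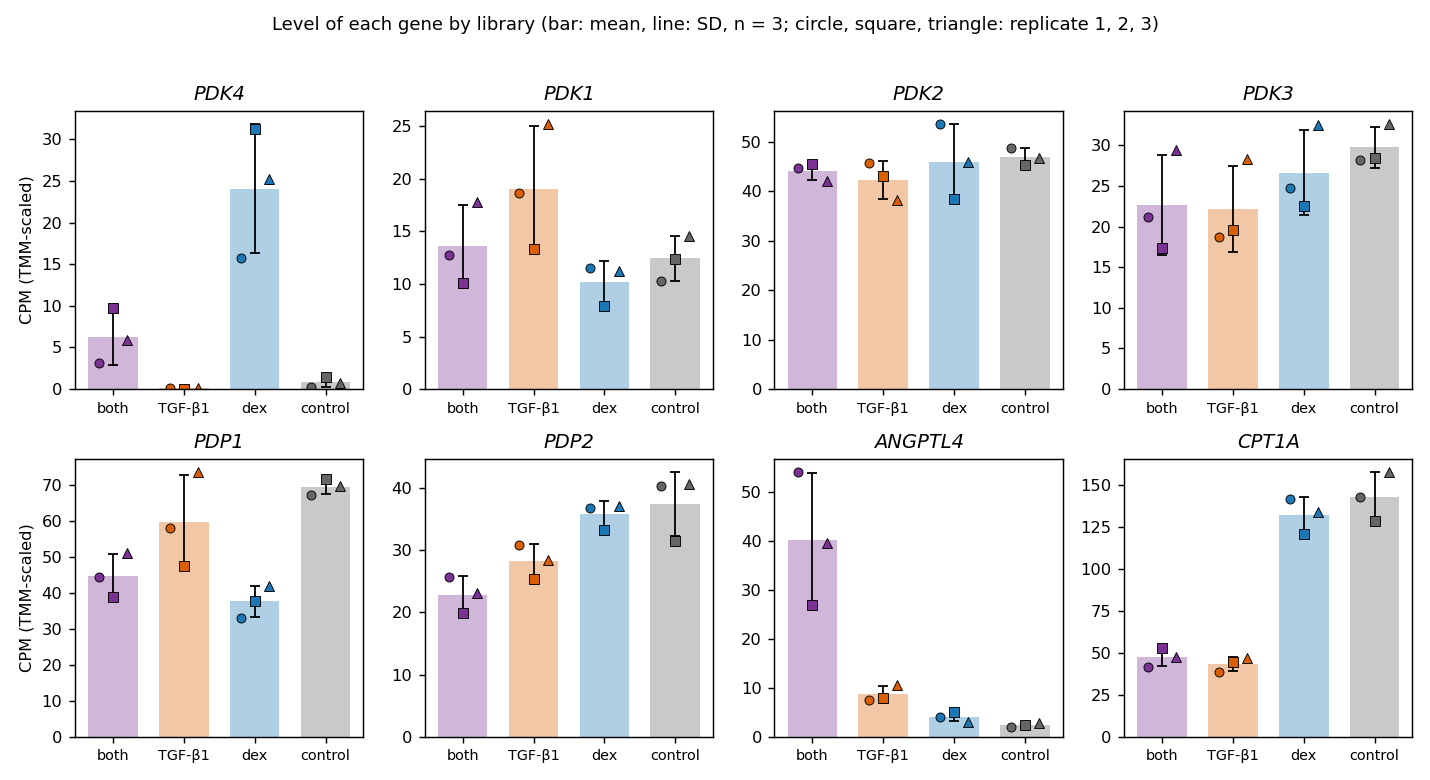
Level of each of the 8 genes in CPM on TMM-scaled totals, for both agents, TGF-β1, dexamethasone (dex) and control; bars are means, lines SD over n = 3 libraries, and circle, square and triangle are replicates 1, 2 and 3. PDK4 is highest with dexamethasone alone (15.8 to 31.2 CPM), ANGPTL4 with both agents (27 to 54.1 CPM), and CPT1A is low in the 6 libraries with TGF-β1 (38.7 to 52.7 CPM).

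CPT1A was lowered by TGF-β1 and did not pass the test with dexamethasone. CPT1A had 41.8, 52.7 and 47.8 CPM with both agents and 38.7, 44.4 and 47 CPM with TGF-β1. It had 142, 121 and 134 CPM with dexamethasone and 143, 129 and 158 CPM in control. The 6 libraries with TGF-β1 lay below the 6 without it, and within each of these sets the libraries overlapped. TGF-β1 lowered CPT1A 3.29-fold against control (log2 -1.72, SE 0.11, adjusted p = 7.71e-08) and 2.79-fold with dexamethasone present, both agents against dexamethasone alone (log2 -1.48, SE 0.11, adjusted p = 3.37e-07). Dexamethasone gave 0.12 (SE 0.11, adjusted p = 0.717) in cells with TGF-β1 and -0.12 (SE 0.11, adjusted p = 0.658) in cells without it. The interaction was 0.24 (SE 0.15, adjusted p = 0.988).

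Of the phosphatases, PDP1, the calcium-responsive isoform, was lowered by dexamethasone and PDP2 by TGF-β1. PDP1 had 44.4, 38.8 and 51 CPM with both agents and 58, 47.6 and 73.6 CPM with TGF-β1. It had 33.1, 37.8 and 41.9 CPM with dexamethasone and 67.3, 71.6 and 69.6 CPM in control. The dexamethasone libraries lay below all control libraries, while the TGF-β1 libraries spanned the control range. Dexamethasone lowered PDP1 1.83-fold against control (log2 -0.87, SE 0.15, adjusted p = 0.00092), and both agents lowered it 1.54-fold against control (log2 -0.62, SE 0.15, adjusted p = 0.00393). In cells given TGF-β1 the steroid effect was -0.42 (SE 0.15) and not past the test (adjusted p = 0.113), but past it with the block (adjusted p = 0.00763) and without replicate 2 of the TGF-β1 libraries (adjusted p = 0.02). The interaction was 0.46 (SE 0.21, adjusted p = 0.652). TGF-β1 against control gave -0.20 (SE 0.14, adjusted p = 0.302), which was past the test without TGF-β1 replicate 3 (-0.40, adjusted p = 0.0427) and with scaling by library size alone (-0.42, adjusted p = 0.0264).

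PDP2, the less calcium-sensitive phosphatase, had 25.6, 19.8 and 23.1 CPM with both agents and 30.8, 25.4 and 28.4 CPM with TGF-β1. It had 36.8, 33.2 and 37.1 CPM with dexamethasone and 40.2, 31.5 and 40.5 CPM in control. Every library with TGF-β1 lay below every library without it. TGF-β1 lowered PDP2 1.33-fold against control (log2 -0.41, SE 0.12, adjusted p = 0.0195) and 1.56-fold with dexamethasone present (log2 -0.64, SE 0.13, adjusted p = 0.0014). The first call was lost without control replicate 1 (adjusted p = 0.0663), control replicate 3 (0.0837) or TGF-β1 replicate 2 (0.0686). Both agents lowered it 1.64-fold against control (log2 -0.71, SE 0.13, adjusted p = 0.000507). The steroid effect was -0.30 (SE 0.13, adjusted p = 0.232, and 0.0165 with the block) with TGF-β1 and -0.07 (SE 0.12, adjusted p = 0.864) without it.

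None of the other 3 kinases passed the test in the fit without the block. PDK1, the kinase induced by hypoxia through HIF-1, had 12.8, 10.1 and 17.8 CPM with both agents, 18.7, 13.3 and 25.2 CPM with TGF-β1, 11.5, 7.88 and 11.2 CPM with dexamethasone and 10.3, 12.4 and 14.6 CPM in control. TGF-β1 had the highest mean but overlapped control. TGF-β1 against control gave 0.62 (SE 0.25, adjusted p = 0.0707), which was past the test with the block (adjusted p = 0.000449), without TGF-β1 replicate 2 (0.0158), without replicate 3 of both agents (0.0491) and without replicate 2 of all 4 groups (0.0132). With the block, PDK1 was also lower with both agents than with TGF-β1 (-0.48, adjusted p = 0.0134) and higher than with dexamethasone (0.47, adjusted p = 0.0102); without it the values were -0.48 (adjusted p = 0.362) and 0.44 (adjusted p = 0.214).

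PDK2, the most widely expressed kinase, ran from 42 to 45.4 CPM with both agents, 38.1 to 45.6 CPM with TGF-β1, 38.4 to 53.5 CPM with dexamethasone and 45.2 to 48.7 CPM in control. All 4 groups overlapped their neighbours, and the log2 fold changes lay between -0.16 and 0.06 (edgeR adjusted p from 0.318 to 0.959). PDK3, a kinase gene on the X chromosome, ran from 17.4 to 29.4 CPM with both agents, 18.7 to 28.3 CPM with TGF-β1, 22.5 to 32.5 CPM with dexamethasone and 28.2 to 32.6 CPM in control. TGF-β1 against control gave -0.40 for PDK3 (SE 0.20, adjusted p = 0.162, and 0.00288 with the block), and both agents against control gave -0.37 (SE 0.20, adjusted p = 0.185, and 0.00509 with the block). With scaling by library size alone, PDK2 and PDK3 were lower with TGF-β1 than in control (-0.36 and -0.61, adjusted p = 0.0205 and 0.0283), and lower with both agents than in control (-0.35 and -0.63, adjusted p = 0.02 for each). In the TMM fit without TGF-β1 replicate 3 the first PDK3 value was -0.64 (adjusted p = 0.0406), and without replicate 3 of both agents the second was -0.63 (adjusted p = 0.0345).

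**Figure D2:**
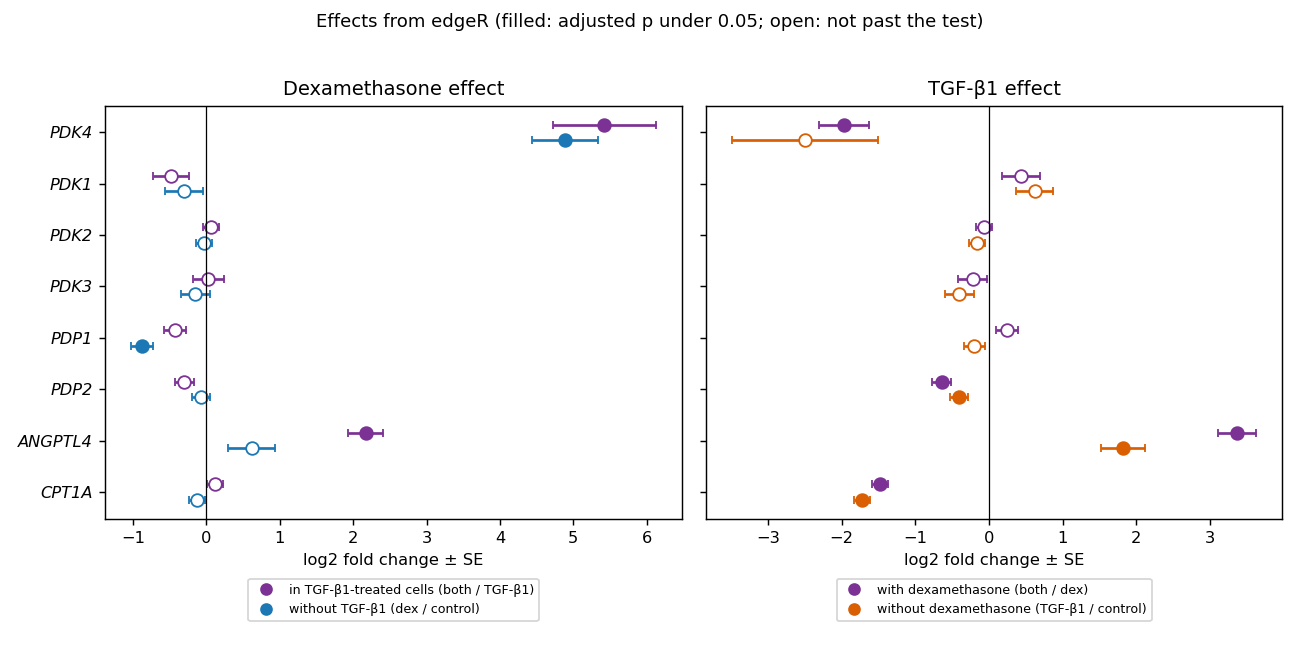
Log2 fold change with its SE from edgeR for each gene, on the left the dexamethasone effect with TGF-β1 (both against TGF-β1) and without it (dexamethasone against control), on the right the TGF-β1 effect with dexamethasone and without it. Filled points are past the adjusted test. The steroid effect on PDK4 is 5.42 and 4.89, that on ANGPTL4 2.17 and 0.62, and the TGF-β1 effect on CPT1A is -1.48 and -1.72.

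The kinases were also read as a mix, by the share of each in their summed reads. PDK4 made up 3.77%, 11.8% and 6.21% of all PDK1 to PDK4 reads with both agents and 0.211%, 0% and 0.183% with TGF-β1. It made up 15%, 31.2% and 22% with dexamethasone and 0.347%, 1.6% and 0.817% in control. The TGF-β1 library at 0 had 491 such reads, which allows a share of up to 0.611%. The share of PDK3 was 26% ± 4.9 with both agents, 26.4% ± 4.17 with TGF-β1, 24.8% ± 3.1 with dexamethasone and 33.1% ± 1.25 in control (SD, n = 3 each). Shares of reads are not corrected for gene length and are compared between groups here, not between genes.

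Per kilobase of exon in GENCODE 29, PDK4 had 1.38 ± 0.741 CPM per kb and PDK1 0.912 ± 0.264 with both agents, which was within their spread. With dexamethasone PDK4 reached 5.33 ± 1.72 CPM per kb, beside 0.685 ± 0.135 for PDK1, 5.37 ± 1.05 for PDK3 and 8.38 ± 1.38 for PDK2, so that PDK4 and PDK3 were within their spread. In control PDK4 was the lowest of the 4 kinases, at 0.182 ± 0.121 CPM per kb, beside 0.837 ± 0.145 for PDK1, 6.01 ± 0.502 for PDK3 and 8.54 ± 0.322 for PDK2 (SD, n = 3 each). With the longest coding transcript as the length, PDK4 kept its rank, but with dexamethasone it stood at 6.74 CPM per kb beside 13.8 for PDK3, and their libraries no longer overlapped. PDK3 then came before PDK2 in control and with dexamethasone.

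The levels of the 4 kinases summed to 86.5 ± 7.46 CPM with both agents, 83.6 ± 7.96 CPM with TGF-β1, 107 ± 7.55 CPM with dexamethasone and 89.8 ± 4.13 CPM in control. Those of the phosphatases summed to 67.6 ± 8.02, 87.9 ± 14.5, 73.3 ± 4.97 and 107 ± 3.51 CPM in the same groups (SD, n = 3 each). The ratio of kinase to phosphatase levels ran from 1.17 to 1.41 with both agents and from 0.9 to 1.04 with TGF-β1. It ran from 1.41 to 1.51 with dexamethasone and from 0.814 to 0.859 in control. The 6 libraries with dexamethasone were all above the 6 without it. These are sums of transcript levels, with no correction for length and no measure of enzyme activity.

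**Figure D3:**
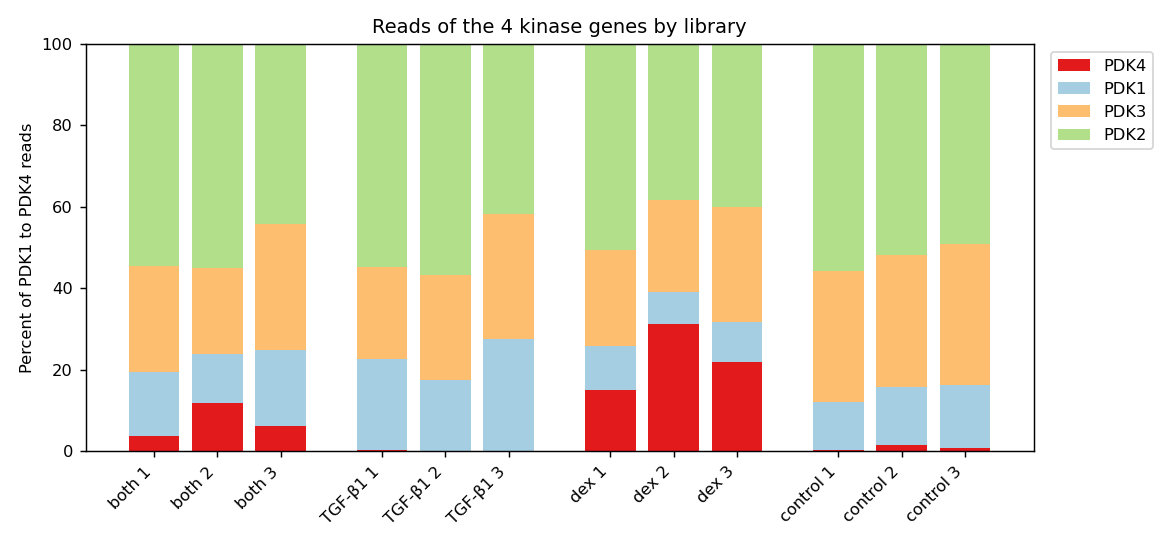
Share of reads from PDK1, PDK2, PDK3 and PDK4 in each of the 12 libraries, in percent of the reads of these 4 genes. PDK4 takes 15% to 31.2% with dexamethasone, 3.77% to 11.8% with both agents, and at most 1.6% in control and 0.211% with TGF-β1.

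Counted over the 8 genes, TGF-β1 against control raised 1 (16.2% of all tested genes were called higher) and lowered 2 (16.6% lower, 32.8% in either direction). With the block it raised 2 and lowered 4, where 50.0% of genes were called. Dexamethasone against control raised 1 (5.54% of genes called higher) and lowered 1 (4.9% lower, 10.4% in either direction). The raised member was PDK4, which was tested only through its level with dexamethasone. PDK4 is also among the members raised by both agents against TGF-β1 and against control. Both agents against TGF-β1 raised 2 (5.09% of genes) and lowered 0 (3.01%, and 8.11% in either direction). That 0 had 2 members lower at an unadjusted p under 0.05 and 0 by DESeq2, and with the block 2 were higher and 3 lower (17.5% of genes called). Both agents against dexamethasone raised 1 (15.9% of genes) and lowered 3 (16.4%, and 32.3% in either direction), and with the block 2 and 3 (49.9% of genes). Both agents against control raised 2 (18.5% of genes) and lowered 3 (18.1%, and 36.6% in either direction), and with the block 2 and 4 (53.1% of genes). The members' median log2 fold change lay between -0.30 and 0.05 in these 5 comparisons, and that of all tested genes between -0.023 and 0.004. For the interaction, edgeR called 0 of the 8, where 0.483% of genes were called higher, 0.401% lower and 0.884% in either direction, and 4.78% with the block. Of the 8, 2 had an unadjusted p under 0.05 (ANGPTL4 and PDP1) and DESeq2 called 1 (ANGPTL4). With scaling by library size alone the median of all genes in TGF-β1 against control was -0.217 and 22.4% of calls were higher in place of 49.5%, and TGF-β1 then raised 1 member and lowered 6.

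By RefSeq on GRCh38.p14, PDK1 (Entrez gene 5163) lies on chromosome 2 from 172555373 to 172724312, PDK2 (5164) on chromosome 17 from 50094737 to 50112152, PDK3 (5165) on chromosome X from 24465286 to 24550466 and PDK4 (5166) on chromosome 7 from 95583499 to 95596516. PDP1 (54704) lies on chromosome 8 from 93916923 to 93926068, PDP2 (57546) on chromosome 16 from 66880515 to 66891101, ANGPTL4 (51129) on chromosome 19 from 8364155 to 8374370 and CPT1A (1374) on chromosome 11 from 68754620 to 68844277. All are protein-coding, and reads were summed over each gene. In GENCODE 29, exons of PDK2 overlap those of SAMD14 on the opposite strand by up to 2113 bases. SAMD14 had 295 reads in all 12 libraries, and without strand the reads of such a pair cannot be told apart.

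The rest of the pathway was read from lists of named genes. Each count is to be read against all tested genes, of which TGF-β1 raised 16.2% and lowered 16.6% (50.0% called with the block), and dexamethasone raised 5.54% and lowered 4.9% (22.2% with the block). Of 6 genes of the pyruvate dehydrogenase complex 2 fell with TGF-β1 and none rose, a share near the 32.8% of all genes called, with a median of -0.21 (all genes -0.009). With the block 4 of the 6 fell. DLAT, the acetyltransferase core, fell (-0.54, SE 0.11, adjusted p = 0.00162), with 50.4 ± 4.24 CPM with TGF-β1 and 73.4 ± 6.81 CPM in control. DLD, the dehydrogenase shared with other complexes, fell as well (-0.45, SE 0.11, adjusted p = 0.00536). With dexamethasone 0 of the 6 were called by edgeR or DESeq2, and 1 had an unadjusted p under 0.05; with the block 1 was higher and 1 lower.

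Of 7 genes of pyruvate transport and the lactate branch, TGF-β1 raised 2 and lowered 3 (3 and 3 with the block), with a median of -0.09 (32.8% of all genes were called). LDHA, the lactate dehydrogenase subunit that favours lactate, rose to 1060 ± 104 CPM with TGF-β1, against 501 ± 52 CPM in control (1.08, SE 0.11, adjusted p = 4.25e-06). SLC16A1, a lactate and pyruvate transporter of the cell surface, rose by 0.31 (SE 0.08). The genes of the mitochondrial pyruvate carrier, MPC1 (-0.82, SE 0.17) and MPC2 (-0.43, SE 0.10), fell, as did pyruvate carboxylase, PC (-0.86, SE 0.15). With dexamethasone 0 of the 7 were called by edgeR or DESeq2, and 0 had an unadjusted p under 0.05.

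Among 19 tested genes of the carnitine shuttle and β-oxidation other than CPT1A, TGF-β1 lowered 8 and raised 1 (14 and 1 with the block), with a median of -0.33. ACADS, the short-chain acyl-CoA dehydrogenase (-0.88, SE 0.19), ECI1, an enoyl-CoA isomerase (-0.84, SE 0.10), and SLC25A20, the carnitine-acylcarnitine carrier (-0.59, SE 0.17), fell. CPT1C, a relative of CPT1A known mainly from brain, rose to 24.9 ± 8.99 CPM with TGF-β1, against 13.4 ± 0.932 CPM in control (0.89, SE 0.23, adjusted p = 0.00993). Dexamethasone raised 1 of the 19 and lowered none (2 and 1 with the block). That gene was SLC22A5, the carnitine importer of the cell surface, which had 112 ± 26.5 CPM with both agents, 30.6 ± 6.4 with TGF-β1, 115 ± 5.81 with dexamethasone and 40 ± 5.71 in control (dexamethasone against control 1.53, SE 0.17, adjusted p = 3.43e-05).

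Of 8 genes that set malonyl-CoA, the inhibitor of CPT1A, or encode AMP-activated kinase, TGF-β1 raised 1 and lowered 2, with a median of -0.09, a share near the 32.8% of all genes called. ACACB, the mitochondrial acetyl-CoA carboxylase, fell (-1.0, SE 0.15), PRKAA2, a catalytic subunit of the kinase, fell to 1.05 ± 0.604 CPM with TGF-β1, against 4.02 ± 1.46 CPM in control (-1.87, SE 0.39), and PRKAB2, a regulatory subunit, rose (0.64, SE 0.18). With dexamethasone 0 of the 8 were called by edgeR or DESeq2, and 2 had an unadjusted p under 0.05; with the block 2 were higher and 1 lower. Of 7 tested genes of fatty acid uptake and activation, dexamethasone raised 2 and lowered 1 (3 and 3 with the block), and TGF-β1 raised 1 and lowered 2 (3 and 1 with the block). ACSL1, which activates long-chain fatty acids, had 303 ± 14.9 CPM with both agents, 31.2 ± 6.19 with TGF-β1, 427 ± 40.3 with dexamethasone and 45.7 ± 6.95 in control. Dexamethasone raised ACSL1 with TGF-β1 (3.26, SE 0.14, both agents against TGF-β1) and without it (3.21, SE 0.14); the interaction was 0.04 (SE 0.19, adjusted p = 1.0). ACSL5 rose with dexamethasone against control (1.29, SE 0.23) and fell with TGF-β1 against control (-0.77, SE 0.25, adjusted p = 0.0343, but 0.0875 with the block). ACSL4 fell with dexamethasone (-0.46, SE 0.12) and rose with TGF-β1 (0.43, SE 0.12).

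Of 9 genes around lipoprotein lipase, the target of ANGPTL4, 2 passed the filter on low counts, LPL and LIPG. TGF-β1 raised 1 and lowered none of these (1 and 1 with the block), and dexamethasone lowered 1. LIPG, endothelial lipase, rose with TGF-β1 against control (0.92, SE 0.24, adjusted p = 0.00999) and fell with dexamethasone against control (-1.18, SE 0.27, adjusted p = 0.0102). Of 4 other angiopoietin-like genes 1 was tested. ANGPTL2 rose to 81.3 ± 56.8 CPM with TGF-β1, against 2.43 ± 0.997 CPM in control (5.21, SE 0.93, adjusted p = 0.00224), and had 0.913 ± 0.156 CPM with dexamethasone (-1.24, SE 1.49, adjusted p = 0.776).

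In the list of transcription factors and coactivators of fuel choice, dexamethasone raised 9 of 16 tested and lowered 1 (9 and 3 with the block). The median was 0.39 (all genes 0.004). This list was chosen with earlier results of these data known, and it holds the glucocorticoid receptor gene and genes known as glucocorticoid-induced. Its number of steroid calls is therefore a description and not a test of the list. TGF-β1 raised 3 and lowered 8 (4 and 8 with the block), with a median of -0.32. FOXO1, a factor known to drive PDK4 in fasting, had 195 ± 34.4 CPM with both agents, 15.8 ± 3.62 with TGF-β1, 185 ± 10.4 with dexamethasone and 24.8 ± 4.24 in control. KLF15, a glucocorticoid-induced factor of fasting metabolism, had 4.13 ± 0.57 CPM with both agents, 0.449 ± 0.354 with TGF-β1, 53.5 ± 11.5 with dexamethasone and 2.83 ± 0.63 in control. The FOXO1 level with both agents was thus close to that with dexamethasone alone (0.08, SE 0.15, adjusted p = 0.734). KLF15, like PDK4, was lower with both agents than with dexamethasone alone (-3.68, SE 0.22, adjusted p = 6.56e-08). In that comparison 1 of the 16 was higher and 7 were lower (3 and 7 with the block). The 7 were KLF15, LPIN1, CEBPD, PPARGC1A, ESRRA, FOXO3 and RXRA, so KLF15 was not alone in this. Unlike PDK4, KLF15 was not past edgeR's test with both agents against control (0.49, SE 0.28, adjusted p = 0.188, and 0.041 with the block). Of all tested genes, 15.9% were called higher and 16.4% lower. A part of these factors in the PDK4 level was not tested. FOXO3 rose with dexamethasone against control (1.73, SE 0.12) and less so in cells with TGF-β1 (0.92, SE 0.11), and its interaction was past the test (-0.80, SE 0.16, adjusted p = 0.0328).

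PPARGC1A, a coactivator of mitochondrial and fasting genes, fell to 11.2 ± 4.05 CPM with TGF-β1, against 53.9 ± 19.6 CPM in control (-2.21, SE 0.40, adjusted p = 0.00165), and gave -0.26 (SE 0.36, adjusted p = 0.819) with dexamethasone. PPARD, a fatty acid receptor, rose with TGF-β1 (1.39, SE 0.27), and CEBPB rose with TGF-β1 (0.92, SE 0.14) and with dexamethasone (2.18, SE 0.14). CEBPD fell with TGF-β1 (-1.49, SE 0.11) and rose with dexamethasone (0.46, SE 0.10). NR3C1, the glucocorticoid receptor, fell with TGF-β1 against control (-0.47, SE 0.14) and with dexamethasone against control (-1.30, SE 0.14).

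Other genes known to answer PPAR receptors, the receptors tied to ANGPTL4, PDK4 and CPT1A, were also listed. Of 9 tested, dexamethasone raised 2 and lowered 1 (2 and 2 with the block), and TGF-β1 raised none and lowered 2 (4 and 2 with the block). PLIN2, a lipid droplet coat protein, rose with dexamethasone against control (0.94, SE 0.10), as did TXNIP, an inhibitor of glucose uptake (1.42, SE 0.17). G0S2, an inhibitor of fat breakdown, fell with dexamethasone (-1.88, SE 0.39), and UCP2 (-0.65, SE 0.15) and ACAA1 (-0.37, SE 0.10) fell with TGF-β1. Of 9 tested hypoxia-responsive genes, which share an inducer with PDK1 and ANGPTL4, TGF-β1 raised 3 and lowered none (6 and 1 with the block), where 32.8% of all genes were called (50.0% with the block). Those 3 were P4HA1 (1.72, SE 0.38), VEGFA (1.19, SE 0.31) and KDM3A (0.50, SE 0.10). Dexamethasone raised NDRG1 (1.70, SE 0.26) and CA9 (2.67, SE 0.46) and lowered VEGFA (-1.96, SE 0.34).

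**Figure D4:**
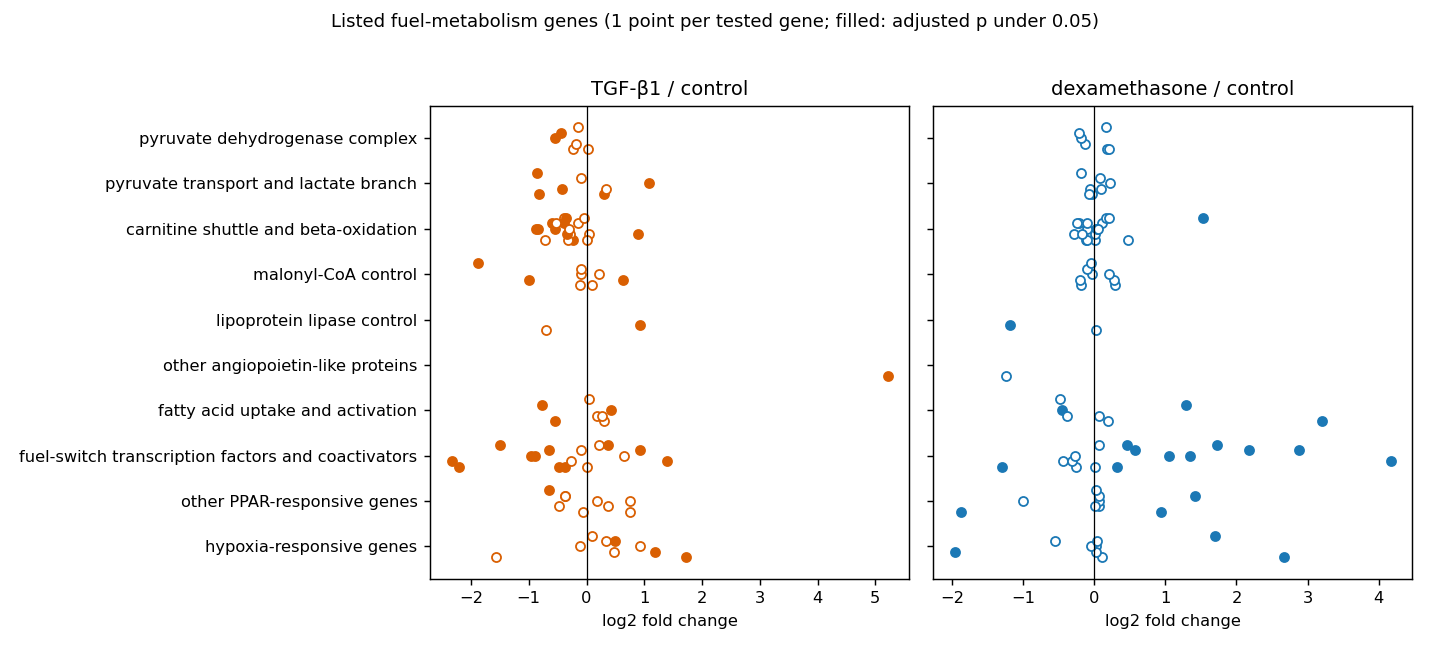
Log2 fold changes of the tested genes of each list, 1 point per gene, for TGF-β1 against control (left) and dexamethasone against control (right); filled points are past edgeR's adjusted test. The factors and coactivators hold 11 calls with TGF-β1 and 10 with dexamethasone, while the pyruvate dehydrogenase complex holds none with dexamethasone. The lists were chosen with earlier results of these data known, so these counts are a description.

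Genes with the pattern most like PDK4, ANGPTL4 and CPT1A were ranked by Pearson correlation of log2 CPM over the 12 libraries among 12442 genes; the 4 groups drive these values, so they are given as a description. For PDK4 the closest were PRKCE, a protein kinase C (r = 0.985), TFCP2L1, a transcription factor (0.973), SLC45A1 (0.973), PPTC7, a mitochondrial phosphatase (0.97), and PLSCR1, a phospholipid scramblase (0.965). TFCP2L1 had 132 ± 50.6 CPM with both agents, 4.15 ± 1.19 with TGF-β1, 241 ± 72.1 with dexamethasone and 11.3 ± 2.19 in control. That is the same order of groups as PDK4, by which it was picked. For ANGPTL4 they were PRICKLE2 (r = 0.983), SLCO2A1, a prostaglandin transporter (0.972), YIF1B (0.971), SOWAHC (0.971) and DNAJB5 (0.97). SLCO2A1 had 42.7 ± 8.53 CPM with both agents, 8.84 ± 2.81 with TGF-β1, 1.49 ± 0.384 with dexamethasone and 0.638 ± 0.125 in control.

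For CPT1A the closest were SCD5, a fatty acid desaturase (r = 0.995), ATP6V0E2, a proton pump subunit (0.994), SLC29A2, a nucleoside transporter (0.992), CYP4X1 (0.991) and MLXIPL, the glucose-responsive factor also called ChREBP (0.991). SCD5 had 36.2 ± 2.18 CPM with both agents, 32 ± 3.14 with TGF-β1, 106 ± 9.95 with dexamethasone and 117 ± 11 in control, and MLXIPL had 1.04 ± 0.461, 0.533 ± 0.225, 20.1 ± 7.91 and 20.6 ± 4.67 CPM in the same groups (SD, n = 3 each). In these genes, as in CPT1A, the means with TGF-β1 lay below the means without it whether or not the steroid was present. This shared pattern follows from how the genes were picked.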

How the data were processed

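RNA was sequenced from 12 BEAS-2B libraries, 3 in each of 4 groups. The authors deposited whole read counts per Entrez gene, not normalized; per the submitters' processing notes they were assigned with featureCounts on hg38. The aligner, the versions, the annotation release and the strand setting are not stated there. Polyadenylated RNA was used, per the labels' protocols, with a kit that does not mark strand. Of 18 count columns, 6 carry no label and were not used. RefSeq (GRCh38.p14) gave symbols for 27745 of 28395 identifiers. No replicate pair matched within sampling noise (5.45 to 16.43 for chi-square over its degrees of freedom).

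Genes were kept by filterByExpr (minimum count 10), leaving 13469. All 12 libraries entered 1 edgeR quasi-likelihood model with a mean per group, TMM and robust dispersion (edgeR 4.0.16, limma 3.58.1, R 4.3.3), checked on simulated data; DESeq2 1.42.0 was an alternative, beside other scalings, no filter, the replicate block and each library left out. SEs come from the fold change and its F statistic. CPM used TMM-scaled totals, and correlations were of log2 CPM (prior count 2). Counting intervals (exact, 95%) and limits (3 counts) cover counting error only: without molecular identifiers, reads need not be separate molecules. Same-numbered libraries correlated over 0.1 in 18 of 18 pairs; this pairing was seen in the data and is not stated in the labels. The named genes were the 8 members, up to 3 called genes per list and direction in the single-agent comparisons, and the 5 most correlated with PDK4, ANGPTL4 and CPT1A. Members and lists were chosen with earlier results of these data known.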

Additional observations from a re-analysis of the deposited data

How the results depend on the processing

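No fold change of the 8 genes past the test turned its direction under any alternative, and the member calls that came or went are given beside their results. With the replicate block, genes called were 6741 in place of 4416 for TGF-β1 against control, 2996 in place of 1406 for dexamethasone against control, 2353 in place of 1092 for both agents against TGF-β1, 6727 in place of 4352 for both agents against dexamethasone, and 644 in place of 119 for the interaction, for which DESeq2 called 209. Members called with the block were 6 in place of 3 for TGF-β1 against control and 5 in place of 2 for both agents against TGF-β1. Scaling by library size alone called 7 members for TGF-β1 against control, and for the interaction DESeq2 called 1 in place of 0. Leaving out each library in turn gave 3366 to 4465 genes and 2 to 5 members for TGF-β1 against control, and 57 to 120 genes and 0 to 1 members for the interaction. Leaving out replicate 2 of all 4 groups, an alternative chosen after seeing the data, gave 171 genes and 1 member for the interaction. The causes were not tested. PDK4 had few reads without dexamethasone (4 with TGF-β1 and 27 in control), and replicates 1 and 2 are shallower than replicate 3. A part of either in the changes of the PDK4 calls was not tested.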

Other observations

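PDK4 was lowest in the library numbered 1 and highest in the library numbered 2 with both agents (3.08 and 9.75 CPM), with dexamethasone (15.8 and 31.2 CPM) and in control (0.303 and 1.4 CPM). With TGF-β1 alone the library numbered 2 was lowest (0 CPM) and that numbered 1 highest (0.175 CPM). Within numbers 1, 2 and 3 the dexamethasone effect against control on log2(CPM + 0.5) was 4.34, 4.06 and 4.34. The added 0.5 CPM exceeds the control level of the library numbered 1. The closeness of these values therefore depends on it and does not show an equal effect. ANGPTL4 differed in this: with both agents replicate 1 was highest (54.1 CPM) and replicate 2 lowest (27 CPM), while in control replicate 1 was lowest (1.97 CPM).

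Of the other members, PDK1 had 2 windows, PDK2 had 3, PDK3 and PDP2 had 1 each and PDP1 had 0, so PDP1 was not searched. The PDP2 window held the hypoxia motif ACGTG at 3 places and that of PDK3 at 1, both strands counted. In PDK1 and in PDK2, 1 window held it at 2 places, and that window belongs to a start other than the gene start given above. In PDP2 and PDK2, 2 of the matches overlap, and 21.4% of all windows hold the motif.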
